A study of Saccharomyces cerevisiae with 12 samples.

Results

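When budding yeast was moved from plentiful to scarce glucose, several of the most strongly raised genes for using other carbon sources rose far less in the snf1 mutant than in the wild type, or did not pass the test there, while other genes passed in both. MPC3 and JEN1, which carry pyruvate and lactate, rose over 20-fold in the wild type and did not pass the test in snf1. SUC2 and HXT7 rose in both genotypes and much less in snf1. HXK1 rose about as much in both on the values as deposited. Many genes that fell in the wild type fell less in snf1 or did not pass the test there, among them genes of amino acid synthesis, the cell wall and ribosome assembly. That contrast depended on the processing. With every array brought to an equal spread of values, it nearly vanished for ribosome assembly. Fewer genes of amino acid synthesis and the cell wall then differed. Long genes also showed it more often than short ones, for a reason that was not tested. The comparison described here is the difference of the low glucose responses, snf1 minus wild type. Its members are the genes with a value on all 4 low glucose arrays, which were 3651 of the 5857 genes with a value on any of the 12 arrays of the series. The genes raised in the wild type but blank on both snf1 arrays are counted apart.

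Snf1 is the yeast counterpart of the AMP-activated protein kinase. It is active when glucose runs low, relieves repression by Mig1 and activates factors such as Adr1 and Cat8, and so allows genes for respiration, gluconeogenesis and the uptake of other carbon sources to be transcribed. It also phosphorylates and restrains acetyl-CoA carboxylase, the enzyme that commits acetyl-CoA to fatty acid synthesis. Cells that lack Snf1 grow on glucose and fail to grow on sucrose, ethanol or glycerol.

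RNA was compared on two-colour spotted arrays, each holding treated and control RNA of the same strain. The 4 low glucose arrays were 2 of the wild type and 2 of an snf1 mutant, both of strain DBY746, for which the labels name no allele. Cultures were grown at 28 °C in 50 ml of rich YPD medium to an A660 of 0.6, washed with water, and resuspended for 15 min in YP medium with 0.05% glucose (treated) or 2% glucose (control). In both genotypes the treated RNA carried Cy5 on array 1 and Cy3 on array 2. The other 8 arrays compared pH 8.0 with pH 5.5 after 10 min in strain DBY4741, 4 of the wild type and 4 of a mutant labelled snf1::KanMX on all but 1 of its arrays, which is labelled snf11::KanMX. The labels do not say whether arrays of a group came from separate cultures. The p-values thus measure only the spread between arrays, which may be technical. For each gene that spread was estimated over all 12 arrays, 8 of them at alkaline pH. A standard error (SE) given below can therefore differ from the scatter of the low glucose values. For HXT2 the SD at low glucose was 0.03 in the wild type and 0.17 in snf1, and the SE was 0.74.

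Each value is the log2 of treated over control RNA, where 1 is a 2-fold rise. The base of the logarithm and the direction are not stated and were taken from the size of the values and the order of the titles. SNF1 itself was blank on all 4 low glucose arrays, and a ratio within one strain cannot check a deletion. The wild type arrays gave values for 5463 and 5370 genes and the snf1 arrays for 4155 and 4056. Over the members, the wild type arrays correlated with each other at a Pearson coefficient of 0.969, the snf1 arrays at 0.879, and arrays of different genotype at 0.668 to 0.702. The spread of values over the members was wider in the wild type (SD 1.23 and 1.26) than in snf1 (0.80 and 0.76). Near-identical genes such as HXT6 and HXT7, the MAL loci and ribosomal protein pairs may share signal on spotted probes.

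A gene is called where limma's test of the difference, adjusted by Benjamini-Hochberg over the 3651 members, is under 0.05. Of the members, 1481 were called (40.6%), of which 1007 were higher in snf1 (27.6%) and 474 lower (13.0%). Counts of called differences in the gene lists below are to be read beside these shares. Called differences of at least 2-fold numbered 613 higher (16.8%) and 256 lower (7.01%). The median difference over all members was 0.18. In 72.7% of members the 2 values of one genotype lay wholly above those of the other. A lack of overlap is thus common here and is read beside that share. It held for 1006 of the 1007 genes called higher and for all 474 called lower. Given a call, it therefore adds no support. Within each genotype, 3405 of 5225 genes with both values passed the test in the wild type (65.2%) and 1696 of 3703 in snf1 (45.8%). In the wild type 33.7% rose and 31.5% fell, and in snf1 28.9% rose and 16.9% fell. Counts within a genotype below are to be read beside these.

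The called differences were mostly smaller responses in snf1. Of the 1192 members raised in the wild type, 688 were also raised in snf1, 489 were not called there and 15 were lower there. Of the 1303 members that fell in the wild type, 521 also fell in snf1, 688 were not called there and 94 were higher there. Among 170 members raised at least 4-fold in the wild type, the median was 2.52 in the wild type and 1.38 in snf1, and 112 had a called lower difference. Among 217 that fell at least 4-fold, the medians were -2.52 and -0.89, and 201 had a called higher difference. Since these sets were chosen on the wild type values that also enter the difference, the medians are a description. When arrays were scaled to one spread, 467 differences were called in place of 1481, 360 higher and 107 lower. Among genes named below that stayed called, this brought MPC3 to -3.22, JEN1 to -2.95, PUT1 to -2.23, SUC2 to -1.65, HXT7 to -1.29, CYC7 to -1.47, SDH2 to -1.28 and ATP3 to 1.05. On the other side it brought PMA1 to 2.01, URA2 to 1.98, FAS1 to 1.80, FKS1 to 1.71, ACC1 to 1.69 and ARO1 to 1.66. With consecutive arrays averaged, each genotype keeps a single value at low glucose. That fit has no low glucose spread and takes its spread from the alkaline pH arrays. Genes named below that then lost their call included ALD4, GPD2, HAP2, HIS4, HSP12, HSP82, HXT2, HXT4, HXT6, MIG1, MIG2, PRP6, RGI1, SAK1, SIP1, SIS1, TUP1, GUT2, GSY1, GLG1, UGP1 and SGA1.

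**Figure D1:**
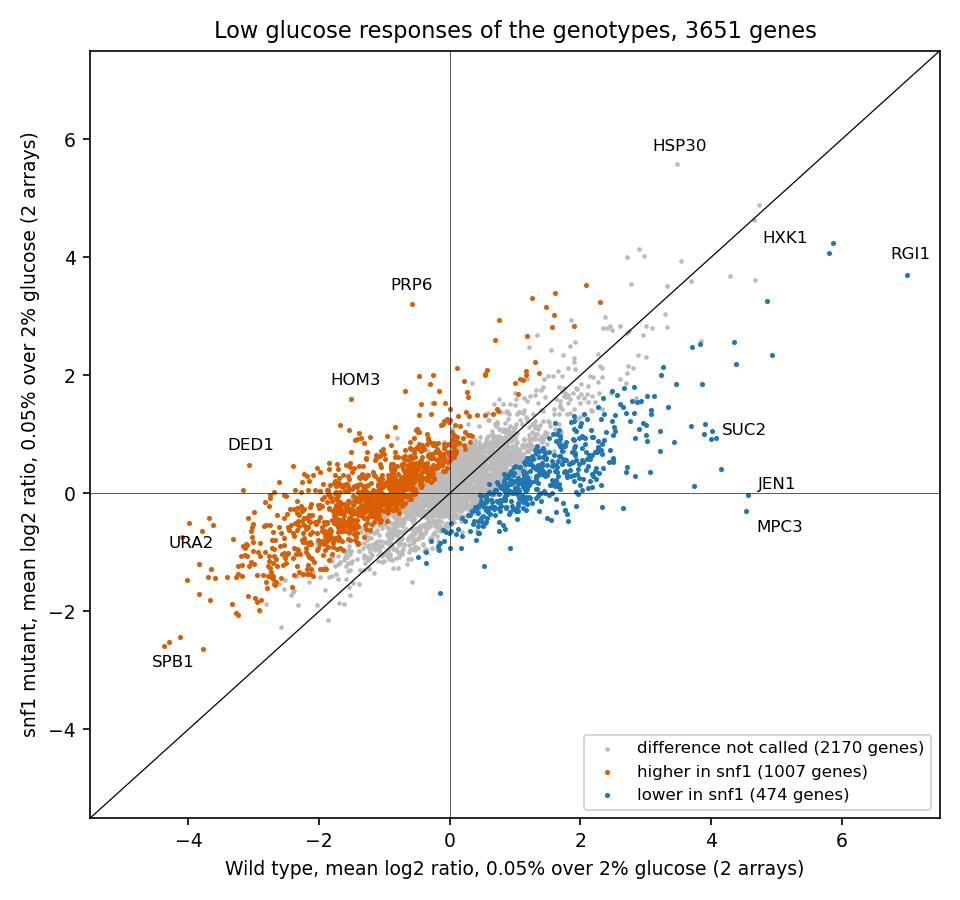
Mean log2 ratio of each gene in the wild type (x axis) and in snf1 (y axis), 2 arrays each, with the line of equal response. Orange genes were called higher in snf1 (1007), blue genes lower (474), and grey genes were not called; MPC3 and JEN1 lie near 0 in snf1, and HXK1 lies on the line.

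The wild type arrays also moved with gene length, and the snf1 arrays hardly did. Coding lengths were found in the R64 annotation for 3480 members. Across these genes the Spearman coefficient of log ratio with length was -0.440 and -0.393 on the wild type arrays, -0.100 and -0.025 on the snf1 arrays, and between -0.166 and 0.142 on the alkaline pH arrays. That of the difference with length was 0.547. With the genes cut by length into 5 bins of about equal size, in the longest bin (2088 bases or more) the array medians were -1.04 and -0.96 in the wild type and -0.03 and -0.01 in snf1, and 64.2% of genes were called higher in snf1. In the shortest bin (771 bases or fewer) 5.87% were called higher and 29% lower. Taking each array relative to a smooth curve on length, a step chosen after seeing the data, left 1166 of 3480 genes called, 732 higher and 434 lower, of which 928 were called before. What links length with the wild type arrays was not tested. Values relative to the curve are given below for several of the named genes that it moved by over 1.5 times or left uncalled, and not for all.

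**Figure D2:**
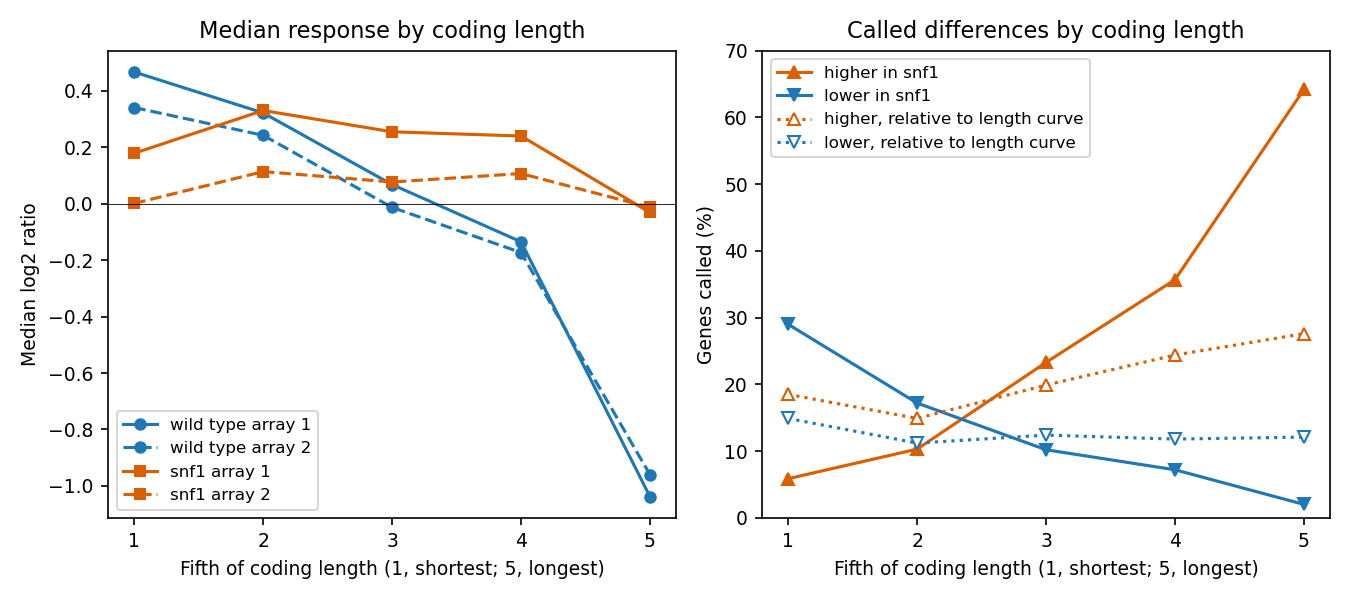
Left, median log2 ratio on each low glucose array by bin of coding length (5 bins): the wild type medians fall to near -1 in the longest bin and the snf1 medians stay near 0. Right, percent of genes called higher or lower in snf1 by bin, before (solid lines) and after (dotted lines) each array was taken relative to a curve on length.

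The 3 largest lower differences belonged to MPC3, JEN1 and PUT1. MPC3, a subunit of the mitochondrial pyruvate carrier used in respiratory growth, stood at 4.36 and 4.72 on the wild type arrays and at -0.21 and -0.39 on the snf1 arrays. The genotypes were far apart, with a difference of -4.84 ± 0.26 (SE), or 28.6-fold, and an adjusted p = 1.90e-06 by limma. JEN1, the lactate and pyruvate permease, stood at 4.53 and 4.59 in the wild type and at -0.07 and -0.00 in snf1. Its difference was -4.60 ± 0.42 (limma adjusted p = 2.45e-05), with both snf1 values next to 0. PUT1, the mitochondrial proline oxidase, stood at 3.97 and 4.35 against 0.41 and 0.43, a difference of -3.74 ± 0.33 (limma adjusted p = 8.61e-05). ALD4, the mitochondrial aldehyde dehydrogenase that makes acetate, stood at 1.88 and 1.98 against -0.07 and -0.35, a difference of -2.14 ± 0.42. ALD4 missed the threshold when arrays were scaled to one spread (limma adjusted p = 0.0535). In the list of ethanol, acetate and lactate use, 5 of 11 tested genes were lower in snf1 and 2 higher, with a median of -0.24. Those shares are 45.5% and 18.2%, beside 13.0% and 27.6% of all members. The 2 higher ones were ADH5, an alcohol dehydrogenase, at 1.70 and 1.49 against 3.03 and 3.03, and ACS2, the acetyl-CoA synthetase used on glucose, at -1.28 and -1.62 against 0.02 and -0.28. The median of this list turned to 0.16 under scaling to one spread.

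Hexose transporters differed among themselves. HXT2, a high-affinity glucose transporter, stood at 2.31 and 2.35 in the wild type and at -0.11 and -0.35 in snf1. The difference was -2.56 ± 0.74 (limma adjusted p = 0.0164), and the call was lost when any 1 of the 4 arrays was left out (adjusted p = 0.0715 to 0.0867). HXT7, another high-affinity transporter, stood at 3.29 and 3.59 against 0.73 and 1.01. It still passed the test within snf1, and its difference was -2.57 ± 0.22 (limma adjusted p = 2.51e-05). HXT6, its near-identical neighbour, stood at 3.19 and 3.35 against 2.37 and 1.92, a difference of -1.13 ± 0.26. That value turned to 0.080 when arrays were scaled to one spread. HXT6 was not called after quantile normalization (limma adjusted p = 0.125), without wild type array 2 (0.0514) or without snf1 array 2 (0.0625). HXT4 was lower by a difference of -0.86 ± 0.26, at 1.29 and 2.10 against 0.88 and 0.79. Its call was lost under scaling (-0.24, limma adjusted p = 0.537), after quantile normalization (0.227), without wild type array 2 (-0.52, adjusted p = 0.246) and without snf1 array 2 (-0.64, adjusted p = 0.173). HXT1, the low-affinity transporter used at high glucose, fell in both genotypes, with -2.05 and -1.35 against -1.74 and -1.96. Its difference was -0.15, with a 95% interval of -0.72 to 0.41, and was not called, though after quantile normalization it was -1.22 and called (limma adjusted p = 0.0156). Of the 7 tested genes for hexose uptake and phosphorylation at low glucose, 4 were lower in snf1 and none higher, with a median of -0.86 that became 0.08 under scaling.

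On the values as deposited, several genes of hexose phosphorylation and storage were raised in both genotypes with no called difference. HXK2, the hexokinase used at high glucose, was not among them, at 0.37 and -0.09 in the wild type and 0.99 and 0.69 in snf1. HXK1, the hexokinase that takes over when glucose is low, stood at 4.66 and 4.67 in the wild type and at 4.47 and 4.78 in snf1. The values overlapped, and the difference of -0.03 had a 95% interval of -0.56 to 0.49. EMI2, a glucokinase paralogue, stood at 3.56 and 3.82 against 3.54 and 3.67, and GLK1, the glucokinase, at 2.71 and 2.05 against 3.12 and 2.85. Neither difference was called. PGM2, the main phosphoglucomutase, stood at 4.68 and 4.79 against 4.90 and 4.86, and MLS1, malate synthase of the glyoxylate cycle, at 2.65 and 3.11 against 2.36 and 2.32. HAP4, the activator of respiratory genes, stood at 2.17 and 2.64 against 2.66 and 2.94. In all, 34 genes rose at least 4-fold in both genotypes with no called difference, and 1, SSF1, fell at least 4-fold in both. These genes were picked for their small differences, so their number is a description, and a missed threshold does not show equal responses. TPS1, raised in both and not called, had a difference of 1.33 under scaling to one spread and was then called (limma adjusted p = 0.0124). Values of HXK1, EMI2, GLK1 and PGM2 under scaling are not given here.

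**Figure D3:**
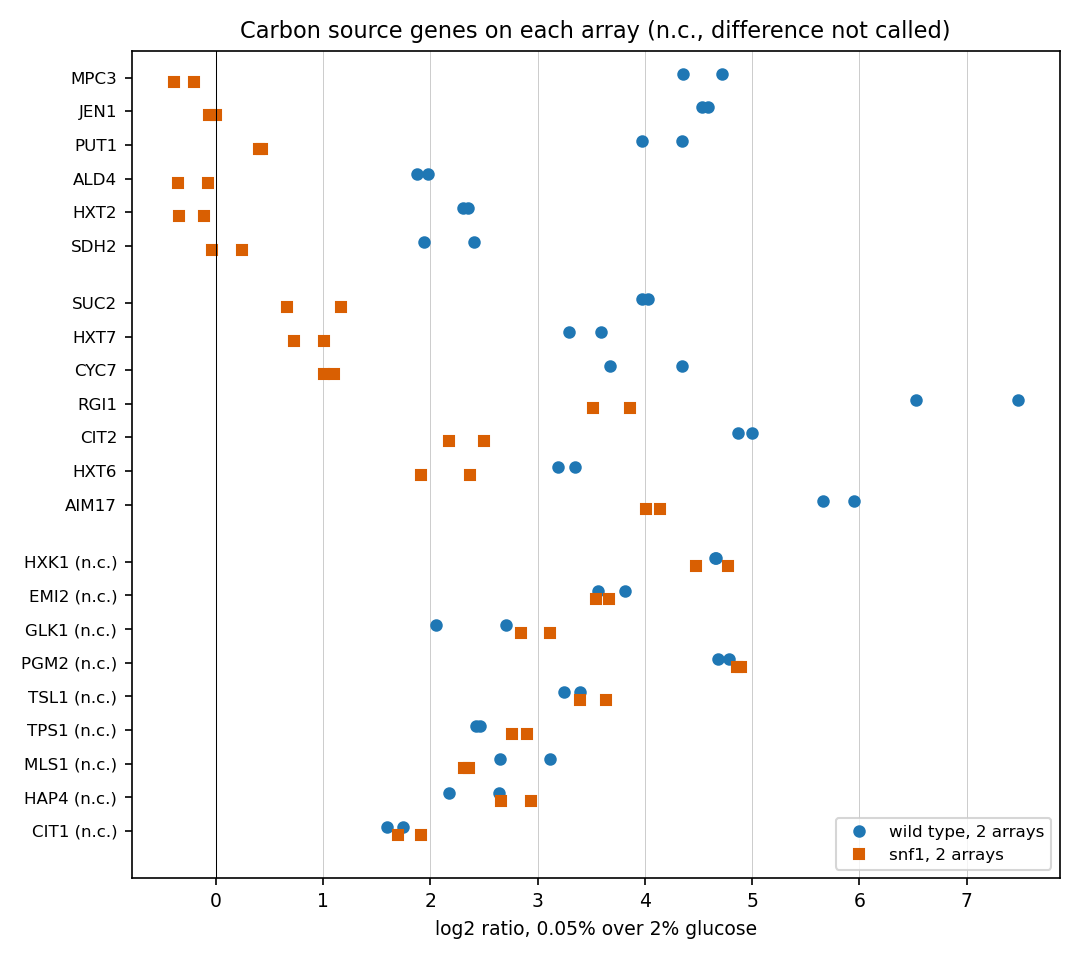
Log2 ratios of carbon source genes on each array, circles for the wild type and squares for snf1. The top group (MPC3 to SDH2) lies near 0 in snf1, and the middle group (SUC2 to AIM17) lies above 0 and below the wild type. Under scaling to one spread the differences of HXT6 and AIM17 turned to 0.080 and 0.50. The bottom group, marked as not called (n.c.), lies near the wild type on the values as deposited. Under scaling the difference of TPS1 in this group became 1.33 and was called.

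SUC2, CIT2 and the respiratory growth genes fell between these extremes. SUC2, the secreted invertase and the classical reporter of glucose repression, stood at 4.03 and 3.98 in the wild type and at 1.17 and 0.67 in snf1. The difference was -3.08 ± 0.26 (limma adjusted p = 2.11e-05), with a remaining rise that passed the test in snf1. RGI1, a respiratory growth gene of little known function, held the highest values of the experiment, 6.53 and 7.48 in the wild type against 3.52 and 3.86. Its difference of -3.31 ± 0.84 lost its call under scaling to one spread (limma adjusted p = 0.669), where its value was -0.63, and after quantile normalization, and was not called without wild type array 2 (adjusted p = 0.0726) or snf1 array 1 (adjusted p = 0.0556). CIT2, the peroxisomal citrate synthase, stood at 4.868 and 4.997 against 2.50 and 2.18, and its difference of -2.60 ± 0.39 likewise became -0.76 and was not called. Of 9 tested respiratory growth genes of little known function, 5 were lower and 1, NCA3, was higher, with a median of -1.23 that turned to 0.16 under scaling. GUT1 and GUT2, glycerol kinase and the mitochondrial glycerol 3-phosphate dehydrogenase, were lower by -1.27 ± 0.20 and -1.89 ± 0.63. GUT2 lost its call with any 1 of the 4 arrays left out (limma adjusted p = 0.0699 to 0.193), and both lost it under scaling, GUT2 also after quantile normalization. GPD2 and GPP1, which make glycerol, were higher by 2.27 ± 0.41 and 1.38 ± 0.21.

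Some of the genes best known as Snf1 targets could not enter the difference. Of the 1759 genes raised in the wild type, 309 were blank on both snf1 arrays (17.6%), beside 839 of all 5225 genes tested in the wild type (16.1%). The share was 9.42% among genes that fell and 20.6% among genes not called, so the share of raised genes lay between these. Per the labels, a blank follows from a small spot or low signal in both dyes. Of the 309, 292 had a value on some snf1 array at alkaline pH. Their median coding length was 678 bases, against 1008 for raised genes with both snf1 values. None of the 1070 genes raised in snf1 was blank on both wild type arrays, beside 6 of all 3703 genes with both snf1 values.

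The 10 strongest of the blank genes were ISF1, ATO2, RGI2, BOP2, FLO8, MAL33, UGX2, ACS1, HMX1 and MAL32. ISF1, a respiratory growth gene, stood at 4.94 and 5.52 in the wild type, and ATO2, of the acetate and ammonium transporter family, at 3.97 and 4.71. ACS1, the acetyl-CoA synthetase used without glucose, stood at 2.58 and 2.79. Maltose genes were blank too: of 11 sucrose and maltose genes measured in the wild type, 9 were raised and 6 of those had no snf1 value, MAL32 (maltase, 2.09 and 2.94) and MAL33 (the activator, 2.87 and 3.21) among them. FBP1, the fructose bisphosphatase of gluconeogenesis, rose to 0.68 and 0.35, and ADR1, an activator downstream of Snf1, to 0.20 and 1.42, both blank in snf1. PCK1, the other key gluconeogenic enzyme, stood at 0.83 and 0.99 and did not pass the test. ADY2, the acetate permease, stood at 3.06 and 2.99 in the wild type and at 0.21 on the snf1 array that measured it. ICL1, isocitrate lyase, stood at 2.26 on a single wild type array and at 0.50 and 0.20 in snf1, so no difference was tested for either. ADH2 and SIP4 had no value on any low glucose array.

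Glucose repressors and derepression activators went both ways, with 7 of 17 lower in snf1, 6 higher and a median of 0.32. MIG1, the repressor that Snf1 inactivates, stood at 1.19 and 1.35 in the wild type and at 0.38 and 0.53 in snf1. The difference was -0.82 ± 0.19 (limma adjusted p = 0.00577). MIG1 lost its call under scaling (-0.36, adjusted p = 0.314), after quantile normalization (0.149), without wild type array 2 (0.066) and without snf1 array 1 (0.0597). MIG2, a related repressor, stood at 0.54 and 0.21 against -0.33 and -0.59, and so was called higher in the wild type and lower in snf1. HAP2, a subunit of the activator of respiratory genes, was lower by -1.41 ± 0.30, and USV1, a zinc finger factor, by -1.13 ± 0.17. TUP1 and CYC8, the general corepressor, were higher by 1.34 ± 0.24 and 1.14 ± 0.19. TUP1 was 0.88 relative to the length curve, and TUP1 and HAP2 lost their calls under scaling, TUP1 also after quantile normalization. CYC8 and USV1 were not followed singly under these alternatives. Relative to the length curve 6 of the list were lower and 3 higher and the median turned to -0.27, and after scaling to one spread 1 was lower and none higher. In the list of the Snf1 complex, its kinases and phosphatase, SAK1 and SIP1 were called higher among 6 tested, and neither was called relative to the length curve, where SAK1 turned to -0.16.

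Respiration genes split by subunit. In the list of the respiratory chain and ATP synthase, 11 of 21 tested genes were lower in snf1 and 2 higher, with a median of -0.58. CYC7, the cytochrome c isoform of low oxygen, stood at 3.68 and 4.35 against 1.01 and 1.10, a difference of -2.96 ± 0.38 (limma adjusted p = 0.000154). QCR9, a small subunit of the cytochrome bc1 complex, stood at 1.74 and 1.83 against -0.63 and -0.05, and TIM11, a small ATP synthase subunit, at 1.73 and 1.23 against -0.45 and -0.39. Both lay above 0 in the wild type and below 0 in snf1. Within snf1 TIM11 passed the test and QCR9 did not (limma adjusted p = 0.103). ATP3, the gamma subunit of the ATP synthase, went the other way, at -2.22 and -2.29 against 0.00 and -0.60, a difference of 1.96 ± 0.26. SDH2, a succinate dehydrogenase subunit, stood at 1.94 and 2.41 against -0.04 and 0.25, while CIT1, the mitochondrial citrate synthase, stood at 1.60 and 1.74 against 1.91 and 1.70. In the tricarboxylic acid cycle 3 of 15 were lower and 2 higher (20% and 13.3%, beside 13.0% and 27.6% of all members). The median coding length of the respiratory list was 468 bases, and relative to the length curve 8 were lower and 2 higher. Of the mitochondrial ribosomal proteins, 20 of 37 were lower and none higher (median -0.64), and 15 more were raised in the wild type and blank in snf1. Relative to the length curve 9 of the 37 were lower, and after scaling to one spread 3.

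Most general stress genes rose in both genotypes, 26 of 29 in the wild type and 25 of 28 in snf1. Of the heat shock chaperones, 17 of 18 rose in snf1, while in the wild type 7 of 19 rose and 5 fell. Among all genes tested, 33.7% rose and 31.5% fell in the wild type, and 28.9% rose in snf1. Of 28 tested general stress genes 8 were lower in snf1 and 4 higher, with a median of -0.07 that became 0.83 under scaling. Relative to the length curve it was 0.05. HSP12, a small membrane stress protein, stood at 4.06 and 4.69 in the wild type and at 3.06 and 1.32 in snf1. Its difference was -2.19 ± 0.59 (limma adjusted p = 0.0113), and the 2 snf1 arrays lay far apart: the call was lost without snf1 array 2, at -1.29 (adjusted p = 0.153), and without wild type array 2, at -1.66 (adjusted p = 0.122). HSP104, the disaggregase, stood at 1.19 and 1.32 against 3.35 and 3.27, a difference of 2.06 ± 0.29 (limma adjusted p = 0.000272) that was 1.29 relative to the length curve. CTT1, the cytosolic catalase, was higher by 1.68 ± 0.31. Of 18 tested heat shock chaperones, 10 were higher and none lower, with a median of 1.31 that stayed at 1.33 under scaling, where 9 were called. SIS1, an Hsp40 co-chaperone, stood at 0.66 and 0.86 against 2.96 and 2.91, and SSC1, the mitochondrial Hsp70, at -1.21 and -1.04 against 0.68 and 0.62. HSP82, the inducible Hsp90, stood at -0.41 and -0.07 against 1.58 and 1.47. None of these overlapped between genotypes, which holds for nearly every called gene. Of the trehalose genes 5 of 6 were raised in the wild type and 5 of 5 in snf1. TPS3, a regulatory subunit of trehalose synthesis, was the one not raised in the wild type, at -0.06 and -0.07 against 1.69 and 1.37 in snf1, a difference of 1.59 ± 0.21 that was 0.66 relative to the length curve. TPS2, the trehalose phosphate phosphatase, was higher by 1.78 ± 0.26, or 1.02 relative to the curve. TPS1, the synthase, was not called, and was 1.33 and called after scaling (limma adjusted p = 0.0124). Among 9 glycogen genes GSY1 (-1.59 ± 0.52) and GLG1 (-1.36 ± 0.42) were lower and UGP1 (0.93 ± 0.21) and SGA1 (1.17 ± 0.21) higher, with a median of -0.88 that became 0.18 under scaling. GLG1 lost its call with any 1 of the 4 arrays left out (limma adjusted p = 0.0652 to 0.158) and GSY1 without wild type array 2 or either snf1 array (0.0841 to 0.228). Under scaling GLG1 was -0.29 and GSY1 turned to 0.26, and after quantile normalization neither was called.

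Genes of amino acid synthesis differed in 1 direction among those called. Of 43 tested amino acid synthesis genes, 30 were higher in snf1 and none lower (69.8%, beside 27.6% of all members), with a median of 1.24. Within the wild type 29 of 45 fell, beside 31.5% of all genes tested there. Within snf1 10 of 44 rose and 5 fell, beside 28.9% and 16.9% of all genes tested there. HOM3, aspartate kinase at the head of threonine and methionine synthesis, stood at -1.43 and -1.60 in the wild type and at 1.59 and 1.60 in snf1. It moved in opposite directions, with a difference of 3.10 ± 0.19 (limma adjusted p = 3.06e-05). ARO1, the multi-step enzyme of aromatic amino acid synthesis, stood at -2.60 and -2.89 against -0.02 and -0.06, a difference of 2.71 ± 0.24 that was 1.42 relative to the length curve. HIS4, of histidine synthesis, stood at -0.58 and -0.03 against 1.73 and 1.98, and lost its call without wild type array 1 (limma adjusted p = 0.0717), without snf1 array 2 (0.0527), and under scaling or quantile normalization. Relative to the length curve 28 of 43 were higher, with HIS4 among those lost, and after scaling to one spread 8 were. GCN4, the activator of this pathway, stood at -1.12 and -1.21 against -0.01 and -0.33, a difference of 0.99 ± 0.19; it was named after its values were seen.

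**Figure D4:**
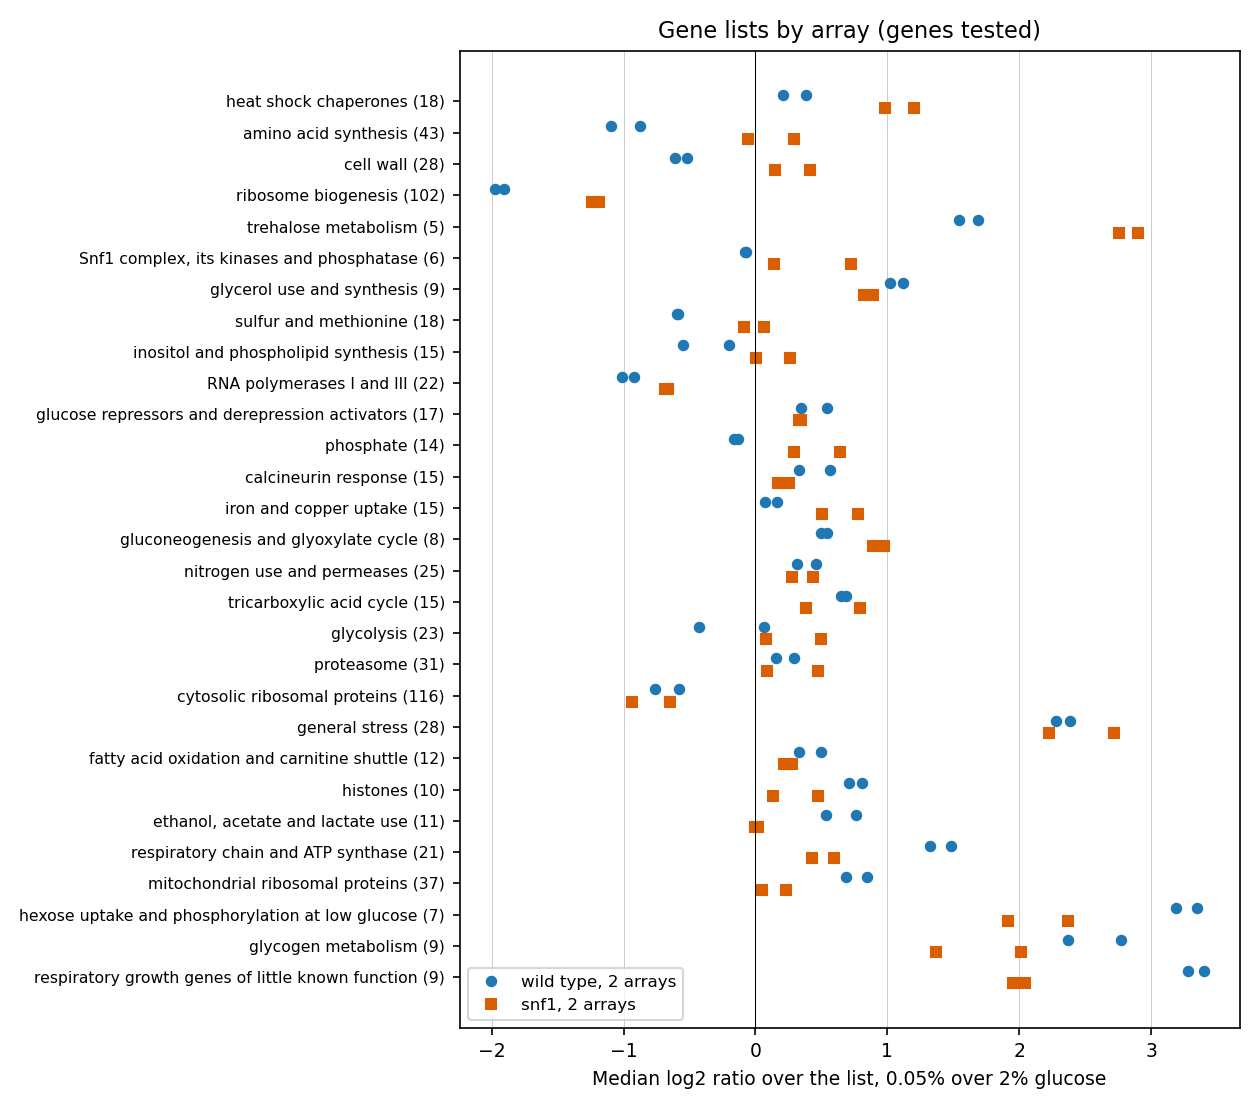
Median log2 ratio of each gene list with at least 5 tested genes on each array, circles for the wild type and squares for snf1, ordered by median difference. Amino acid synthesis, cell wall and chaperone medians lie higher in snf1 on both arrays, and those of the respiratory chain and mitochondrial ribosomal proteins lie lower.

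The largest higher differences included ACC1 and FAS1 of fatty acid synthesis and FKS1 of the cell wall, beside genes of other roles. ACC1, acetyl-CoA carboxylase, stood at -3.74 and -3.51 in the wild type and at -0.50 and -0.59 in snf1. The difference was 3.08 ± 0.22 (limma adjusted p = 1.09e-05), and for this gene of 6702 bases it became 1.52 relative to the length curve and stayed called. FAS1, a fatty acid synthase subunit, stood at -4.21 and -3.99 against -0.75 and -0.72, a difference of 3.37 ± 0.21 that became 1.88. FKS1, the main glucan synthase, stood at -3.97 and -3.61 against -0.77 and -0.52, and PMA1, the plasma membrane proton pump, at -3.21 and -3.13 against 0.11 and -0.01. URA2, which begins pyrimidine synthesis, stood at -4.18 and -3.80 against -0.51 and -0.48. Relative to the length curve the difference of FKS1 went from 3.14 to 1.72 and that of URA2 from 3.49 to 1.94, both still called. All of these long genes fell in the wild type and lay well apart from snf1. DED1, an RNA helicase of translation initiation and of 1815 bases, stood at -3.11 and -3.05 against 0.60 and 0.37, a difference of 3.56 ± 0.28 that was 3.27 relative to the curve. PRP6, a splicing factor, had the largest higher difference of the named genes, 3.79 ± 0.80, from -0.45 and -0.72 against 3.37 and 3.03. Of 28 tested cell wall genes 21 were higher (75%, beside 27.6% of all members) and none lower (median 0.89). Relative to the length curve 17 were higher, and after scaling 11. PFK1 and PFK2, the phosphofructokinase subunits, were higher by 2.45 ± 0.28 and 2.22 ± 0.19 (1.59 and 1.39 relative to the length curve). Of 23 tested glycolysis genes 5 were higher (21.7%), a share below the 27.6% of all members, and none lower.

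Ribosome biogenesis genes fell in both genotypes. In the wild type 102 of 111 fell and in snf1 93 of 103, beside 31.5% and 16.9% of all genes tested. Of 102 tested differences 48 were higher in snf1 (47.1%, beside 27.6% of all members) and none lower, with a median of 0.76. That median turned to -0.05 when arrays were scaled to one spread, with 1 gene called higher. KRE33, an acetyltransferase of ribosomal RNA, stood at -3.56 and -3.84 against -1.36 and -1.49, a difference of 2.27 ± 0.28 that was 1.34 relative to the length curve and 0.82, not called, under scaling. DBP10, a helicase of large subunit assembly, was higher by 2.26 ± 0.29, or 1.39 relative to the curve and 1.07 under scaling. Cytosolic ribosomal protein genes fell too, in 85 of 124 in the wild type and 95 of 116 in snf1. Of their 116 tested differences 3 were higher and 9 lower, with a median of -0.07, and relative to the length curve 17 were higher and 2 lower, with the median at 0.21.

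The remaining lists are given by counts of tested genes higher and lower in snf1, beside 27.6% and 13.0% of all members. Gluconeogenesis with the glyoxylate cycle had 2 and 2 of 8, and fatty acid oxidation 2 and 2 of 12. Inositol and phospholipid synthesis had 6 and 0 of 15, sulfur and methionine 5 and 0 of 18, and phosphate genes 6 and 0 of 14. Nitrogen use and permeases had 7 and 6 of 25, with HIP1, the histidine permease, higher by 2.04 ± 0.20. Iron and copper uptake had 5 and 1 of 15, the calcineurin response 3 and 3 of 15, and RNA polymerases I and III 7 and 0 of 22. Histones had 0 and 3 of 10, the proteasome 2 and 1 of 31, galactose use 1 and 0 of 4, and glucose transport and phosphorylation at high glucose 0 and 0 of 3.

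A group of 109 genes passed the test in both genotypes in opposite directions, with a called difference. Of these, 94 fell in the wild type and rose in snf1, and 15 the reverse. TPO2, a polyamine transporter, stood at -0.53 and -0.41 in the wild type and at 2.16 and 1.83 in snf1. PHO91, a vacuolar phosphate transporter, stood at -1.73 and -1.97 against 0.77 and 0.25. PEX22, a peroxisomal protein, was the strongest of the reverse kind, at a mean of 1.56 in the wild type and -0.45 in snf1, and TIM11 and MIG2 are among these 15. TPO2 and PEX22 were named after their values were seen.

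The same genotype comparison at alkaline pH, made on other arrays and in another strain background, called 51 of 4380 genes (1.16%), 18 higher in snf1 (0.411%) and 33 lower (0.753%). Of 3231 genes tested in both treatments, 440 were lower in snf1 at low glucose and 26 at pH 8.0, and 19 were lower in both, which is 4.32% of the low glucose list and 73.1% of the pH list. Higher in both were 6, or 0.704% of 852 and 50% of 12. Shares of the pH lists are to be read beside the low glucose calls among all members, 13.0% lower and 27.6% higher. A further 2 genes were higher at pH 8.0 and lower at low glucose. Across these genes the differences in the 2 treatments had a Pearson coefficient of 0.323 and a Spearman coefficient of 0.248, given as a description since genes are not independent replicates.

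MPC3 had a difference of -4.84 at low glucose and -1.82 ± 0.18 at pH 8.0, where it still rose to a mean of 1.29 in snf1. JEN1 had -4.60 and -2.09 ± 0.29, with a snf1 mean of 0.05 at pH 8.0. SUC2 had -3.08 and -2.26 ± 0.18, HXT7 had -2.57 and -3.01 ± 0.17, and HXT4 had -0.86 and -2.14 ± 0.20. Of these 5 genes, MPC3 and JEN1 had the largest differences at low glucose, and HXT7 at pH 8.0. HXK1 had -0.03 at low glucose, not called, and -1.27 ± 0.17 at pH 8.0 (limma adjusted p = 0.00282). Whether a genotype difference itself differed between treatments was not tested, and treatment and strain cannot be told apart.

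**Figure D5:**
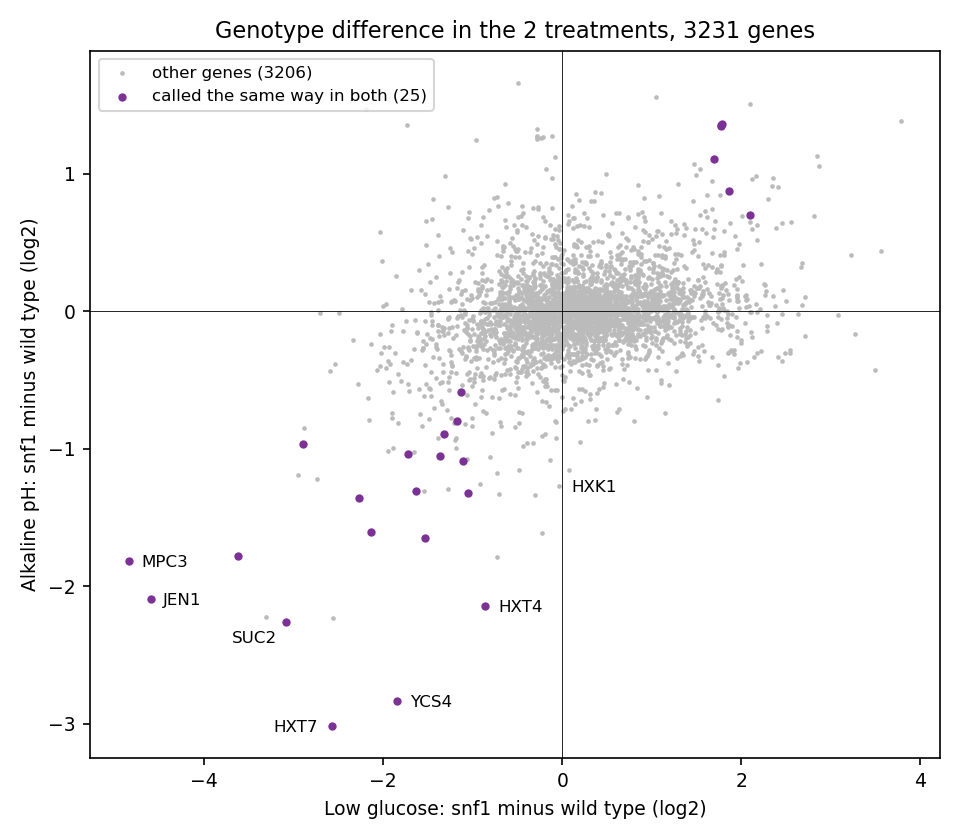
Difference snf1 minus wild type (log2) at low glucose (x axis) and at alkaline pH (y axis) for 3231 genes tested in both; purple genes (25) were called the same way in both. JEN1, MPC3, SUC2 and HXT7 lie at the lower left, and HXK1 lies near 0 on the x axis and below 0 on the y axis.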

How the data were processed

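RNA of treated and control cells was compared on 12 two-colour arrays in 4 groups, 2 arrays a group at low glucose and 4 at alkaline pH. The deposited table holds log2 ratios, 1 column an array; the base of the logarithm is not stated and was taken as 2. Per the labels' protocols, spots under 120 µm in diameter or under 100 units of fluorescence in both dyes were left out. How the authors normalized the arrays is not stated in the labels. Values were used as deposited.

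A linear model was fitted to all arrays by lmFit and moderated by eBayes (limma 3.58.1, R 4.3.3), with 1 coefficient a group and a dye term for each gene. The difference, snf1 minus wild type, was adjusted by Benjamini-Hochberg over all genes with the values it needs, and called under 0.05. The procedure was tested on simulated data. Dye and replicate number run together at low glucose; the labels name no shared batch, so numbers were not treated as pairs. Alternatives are in the closing section.

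Members and the 32 gene lists were chosen with earlier results of these data known. The rule for named genes took the 15 largest called differences in each direction without overlap, up to 4 called genes a list, the 10 strongest blank genes and preset carbon genes. Genes named for small or opposite responses, at alkaline pH or beyond that rule were chosen after their values were seen. Coding lengths and names came from the R64 annotation. No sequences were used here.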

Additional observations from a re-analysis of the deposited data

Results flagged for a closer look

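For 8 preset genes the response at low glucose differed between the genotypes by limma's test of the difference. The differences, snf1 minus wild type, were -4.60 for JEN1, -3.08 for SUC2, -2.57 for HXT7, -2.56 for HXT2, -2.19 for HSP12, -0.84 for MIG2 and -0.82 for MIG1, and 3.08 for ACC1. The genotypes did not overlap for these genes, which holds for nearly every called gene and adds no support to the calls. The call of HXT2 was lost with any 1 array left out, that of HSP12 without wild type array 2 or snf1 array 2, and that of MIG1 without wild type array 2 or snf1 array 1. HXT2, HSP12 and MIG1 also lost theirs under scaling to one spread.

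Among 47 groups of alkaline pH values tested for 1 array apart from the rest, 1 was found, where chance gives about 1 in 20. It was UGA2, a gene of GABA use, in the snf1 alkaline pH group, with 1 array at 1.12. It enters no low glucose value.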

How the results depend on the processing

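With 2 arrays a genotype, the count of 1481 called differences depended most on how the spread was treated. It was 467 with arrays scaled to one spread, 589 after quantile normalization, 483 with consecutive arrays averaged, and 625 in the shortest 3 of 5 bins of coding length, where 40.3% were higher against 68.0% of all calls. It was 1358 with a replicate block in the fit of all arrays and 1932 with the block on the 4 low glucose arrays alone. Leaving out 1 array gave 959 to 1135. The 3405 wild type calls, of 5225 genes, became 2123 under scaling and 3379 on leaving out either snf1 array. Among the 2980 genes with a value on all arrays 2027 were called. The 1696 snf1 calls became 688 with arrays averaged, with 814 to 1616 on leaving out an array. The 309 blank genes became 130 under scaling, 166 after quantile normalization, 197 with arrays averaged, 204 relative to the length curve and 121 by a 2-fold rule without a test, and 158 to 216 on leaving out a wild type array. For them a filter on genes with a value on all arrays is void by construction, and fits of the 4 arrays alone or without an snf1 array were not run.

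Of 136 named genes, 50 lost their call in the same direction under scaling, 35 after quantile normalization, 54 with arrays averaged, 17 relative to the length curve and 3 with the block (GDH2, GSY1 and HXT4). Direction reversed, with the call also lost, under scaling for HXT6 (0.080), GSY1 (0.26) and AIM17 (0.50), and relative to the length curve for SAK1 (-0.16). Leaving out 1 array cost 19 to 23 calls. Among genes that kept their direction, HXT1 gained a call after quantile normalization (-1.22), TPS1 under scaling (1.33), and HXK2 and MLS1 in fits of the 4 low glucose arrays. Calls gained with a change of direction were not counted. None of the 136 lost its call with arrays centred, without the dye term or with robust eBayes. Genes named beyond the rule, such as CYC8, USV1, CTT1, ADH5, ACS2, GCN4, TPO2, PEX22, EMI2, GLK1 and PGM2, were not among the 136. Their single results under the alternatives are not given. The cause was not tested.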
